A study of Mus musculus with 48 samples.

Results

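The collagen genes are the 44 genes whose symbol, assigned to the Ensembl identifiers of the RNA count files, has the form of a collagen alpha chain (Col, a type number, the letter a and a chain number). All 44 were listed in both kinds of RNA file, among 48709 identifiers for neurons and 47729 for whole CA tissue. They comprise 11 fibrillar genes, 6 basement membrane genes of type IV and 27 others. The others are 9 fibril-associated collagens (FACITs), 4 transmembrane collagens, 2 multiplexins, 6 beaded filament collagens of type VI, 3 short chain collagens, 1 anchoring fibril collagen and 2 that fit none of these.

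The study compared adult mice labelled Setd1b cKO, in which Setd1b, an enzyme that methylates lysine 4 of histone H3, is conditionally knocked out, with mice labelled Control. All were C57BL/6J and 4 to 6 months old. RNA was sequenced from neurons of the hippocampal CA region (3 libraries labelled cKO, 3 labelled control) and from whole CA tissue (6 of each). Histone H3K4me3 was profiled by ChIP-seq in sorted neuronal nuclei (4 of each), as were H3K4me1 (4 of each), H3K27ac (4 labelled cKO, 3 labelled control) and H3K9ac (3 labelled cKO, 4 labelled control). The recombinase that deletes Setd1b, the genotype of the control animals beyond their label and the steps by which the neuron RNA was isolated are not described in the labels. Nothing says that the libraries of a group came from separate animals, so the p-values measure the spread between libraries.

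Collagens are trimers of alpha chains wound into a triple helix, secreted and cross-linked outside the cell. Fibrillar collagens form the fibres of connective tissue, and the chains of types V and XI start fibrils and limit their width. Type IV collagen forms the network of basement membranes, which in the brain surround blood vessels and underlie the meninges. FACITs bind to fibril surfaces, multiplexins lie in basement membrane zones, type VI forms beaded microfilaments, and several transmembrane and fibril-associated collagens are made by neurons.

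Setd1b itself was not lower in the libraries labelled cKO when whole-gene counts were used. It stood at 59.9 to 72.1 CPM (counts per M counted reads) in neuron RNA labelled cKO against 47.6 to 65.4 in control (adjusted p = 0.361, edgeR). Among whole CA libraries it was higher in all 6 libraries labelled cKO (54.6 to 67.6 CPM) than in any control library (29.5 to 54.4 CPM, adjusted p = 0.00415, edgeR). A whole-gene count does not show whether a deleted exon is missing, so directions below refer to the library labels. The depth was 55.7 to 69.1 M counted reads per library of neurons and 14.9 to 20.1 M per library of whole CA, and whole CA replicates 1 to 3 and 4 to 6 were named for lanes 1 and 2.

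Cell type markers were read beside the collagens, because vessels, meninges and choroid plexus are rich in collagen. Over all genes, edgeR called 2.0% lower in neuron RNA and 2.79% lower in whole CA RNA. Single genes were apart between genotypes without overlap in 11.1% (lower) and 12.5% (higher) of cases in neuron RNA. For whole CA RNA these shares were 1.78% and 1.43%. In control neuron RNA the endothelial genes Cldn5 (0.172 CPM) and Cdh5 (0.0616 CPM), the choroid plexus gene Ttr (0.104 CPM) and the smooth muscle gene Acta2 (0.099 CPM) were near 0. Other genes of the same lists were counted there, with means of 27.5 CPM for Kl, 6.80 CPM for Itm2a and 5.72 CPM for Kdr. Summed over 6 pyramidal neuron markers, neuron RNA held 2514 to 2901 CPM in libraries labelled cKO against 2931 to 3489 in control. Within that list Neurod6 fell by 2.24 and Wfs1 by 1.11 on the log2 scale (adjusted p = 2.96e-05 and 0.000219, edgeR). Nrgn was also called lower in neuron RNA. All 6 estimates were negative there, with a median of -0.34, and 4 of the 6 were negative in whole CA RNA. The same sum overlapped in whole CA RNA (6467 to 7032 against 6811 to 7729 CPM), although Neurod6 fell by 1.78 and Wfs1 by 0.43. The sum of 3 dentate granule cell markers was lower without overlap in neuron RNA, with a median of 120 against 164 CPM. C1ql2 and Dsp of that list were called lower there (edgeR). In whole CA RNA the dentate sum overlapped, Dsp was called lower, and all 3 estimates were negative, with a median of -0.69. The sum of 9 endothelial markers was 15.9 to 16.8 CPM against 17.5 to 20.1 CPM in neuron RNA and overlapped between genotypes in whole CA RNA. Kdr, a receptor of endothelial cells, fell in both materials and Itm2a in whole CA RNA. The 7 choroid plexus markers summed lower without overlap in both materials (13.4 to 15.2 against 27.1 to 29.4 CPM, and 18.6 to 21.8 against 31.7 to 38.4 CPM). Kl was the 1 gene of that list called (-1.07 and -1.04). With its control mean of 27.5 CPM, Kl made up nearly all of the neuron sum, which thus mainly restates the fall of Kl. Only 3 of the 7 were tested among neuron libraries and 5 among whole CA libraries, all with negative estimates. The 7 pericyte markers summed higher in neuron RNA by a very narrow margin (11.658 to 12.868 against 9.215 to 11.656 CPM) and overlapped in whole CA RNA. Of these 7, 4 were tested in neuron RNA, and 0 were called in either material (edgeR). The sums of the 8 fibroblast or meningeal markers, with 0 calls by edgeR, and of the interneuron, smooth muscle, astrocyte, oligodendrocyte, precursor and microglia markers overlapped in both materials, with Aqp4 and Cx3cr1 called lower in whole CA RNA. The part of any of these in the collagen differences was not tested, and in bulk RNA fewer cells of a type and less RNA per cell cannot be told apart.

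The sequence before the start site is shown for the members on which the results turn. Col11a1 and Col15a1 differed most clearly in RNA among genes with an entry. Col6a1 was lower in whole CA RNA and shorter in H3K4me3 coverage, while the libraries of its neighbour Col6a2 overlapped in both, and Col4a1 and Col4a2 share 1 start region. Each run is the last 120 bases before a RefSeq start site (GRCm38.p6), read 5′ to 3′ on the gene's strand, with every CG dinucleotide, the substrate of DNA methylation and a feature of promoters that carry H3K4me3, in capitals.
Col11a1 (chr3:114030420-114030539, plus strand): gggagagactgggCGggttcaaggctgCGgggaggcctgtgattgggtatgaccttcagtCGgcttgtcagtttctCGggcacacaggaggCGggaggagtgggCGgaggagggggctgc
Col15a1 (chr4:47207892-47208011, plus strand): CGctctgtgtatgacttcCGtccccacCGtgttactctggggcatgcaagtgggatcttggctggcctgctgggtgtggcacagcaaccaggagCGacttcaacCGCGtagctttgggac
Col6a1 (chr10:76726045-76726164, minus strand): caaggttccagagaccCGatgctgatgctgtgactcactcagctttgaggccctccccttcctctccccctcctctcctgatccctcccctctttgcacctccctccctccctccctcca
Col6a2, the first of its start sites in the gene (chr10:76623631-76623750, minus strand): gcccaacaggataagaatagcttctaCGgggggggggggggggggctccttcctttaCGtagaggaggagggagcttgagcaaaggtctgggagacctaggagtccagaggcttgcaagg
Col6a2, the other start site (chr10:76623405-76623524, minus strand): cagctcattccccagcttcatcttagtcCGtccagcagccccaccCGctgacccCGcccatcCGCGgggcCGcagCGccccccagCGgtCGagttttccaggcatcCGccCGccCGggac
Col4a1 (chr8:11312827-11312946, minus strand): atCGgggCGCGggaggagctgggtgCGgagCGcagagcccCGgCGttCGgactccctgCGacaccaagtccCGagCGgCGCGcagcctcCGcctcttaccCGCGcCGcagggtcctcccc
Col4a2 (chr8:11312685-11312804, plus strand): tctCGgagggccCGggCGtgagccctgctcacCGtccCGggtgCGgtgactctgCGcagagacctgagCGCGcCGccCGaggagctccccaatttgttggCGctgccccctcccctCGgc

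The count of CG dinucleotides in these windows was 17 for Col4a1 and 13 for Col4a2, 6 each for Col11a1 and Col15a1, and 1 for Col6a1. The Col6a2 windows held 2 and 12. RefSeq entries were matched for 35 of the 44 collagen genes, with 38 start sites. Their median was 5.5 CG against 3.0 over all 32619 start sites of the table, while 10 or more CG stood in 23.7% of the collagen windows and in 23.7% of all. The letters GGGCGG, a binding motif of the Sp family, were present on either strand in 47.4% of the collagen windows and in 26.7% of all. TATAAA was present on either strand in 7.89% against 6.38%. These matches describe letters and are not evidence of binding.

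Collagen genes were first compared between control neuron RNA and control whole CA RNA. Of 42 tested, 28 were higher in neuron RNA and 10 lower (edgeR, adjusted p under 0.05), where 43.2% and 39.8% of all genes tested were called in these directions. The median difference of the collagens was 1.504 on the log2 scale against 0.07 over all genes. Material, isolation, depth and sequencing run cannot be told apart in this comparison.

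The classes were divided in this comparison. Among fibrillar genes, 5 were higher and 5 lower in neuron RNA. Col5a1 (log2 difference 3.14 ± 0.14, SE), Col5a2 (2.59), Col24a1 (2.51) and Col11a1 (2.04) lay at the upper end and Col1a2 (-4.86 ± 0.33), the second chain of type I collagen of skin and meninges, at the lower end. Col1a2 averaged 0.177 CPM in control neuron RNA and 4.68 CPM in control whole CA RNA. Basement membrane genes split by pair. Col4a1 (2.21) and Col4a2 (1.91) were higher in neuron RNA, Col4a5 (-2.62) and Col4a6 (-2.13) lower, and Col4a3 and Col4a4 were not called. Of the others, 21 were higher in neuron RNA and 3 lower. The highest differences among them were Col6a2 (3.0), Col19a1 (2.89) and Col12a1 (2.89), and the lower genes were Col8a2 (-4.69), a short chain collagen of vessels and endothelia, Col9a3 (-2.43) and Col8a1 (-0.78). No lengths were used, so CPM are not compared between genes.

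**Figure D1:**
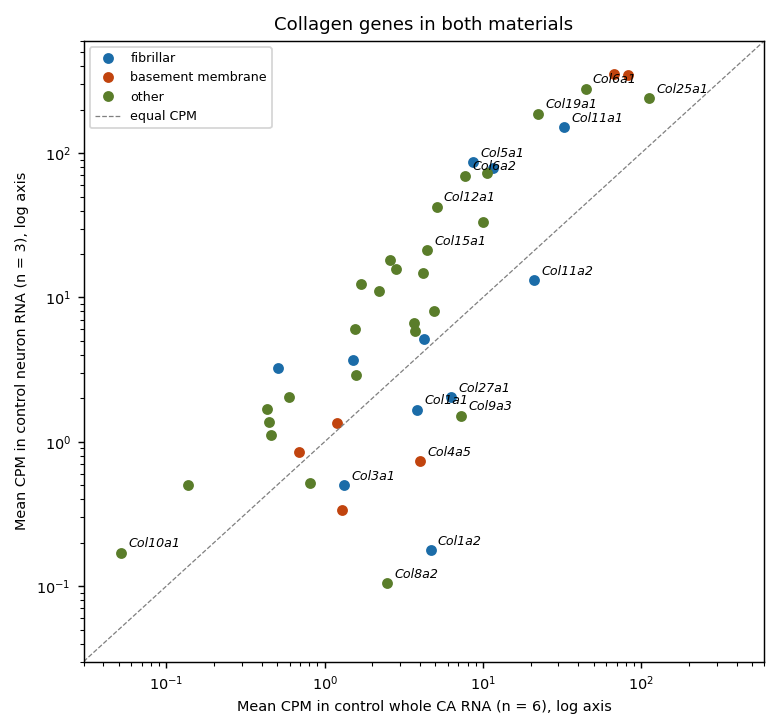
Each point is 1 collagen gene, with its mean CPM in control whole CA RNA (6 libraries) on the horizontal log axis and in control neuron RNA (3 libraries) on the vertical log axis, coloured by class. Points above the dashed line have the higher CPM in neuron RNA, where Col5a1 and Col6a2 stand out, while Col1a2 and Col8a2 lie furthest below it.

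The question of the genotype comparison was which genes differ in expression when Setd1b is deleted. In neuron RNA, 43 collagen genes passed the filter on low counts and Col8a2 did not. Of the 43, 5 were called, all lower in libraries labelled cKO (Col11a1, Col12a1, Col15a1, Col18a1 and Col22a1), against 2.0% of all genes called lower and 0.744% called higher (edgeR, adjusted p under 0.05). The median log2 fold change was -0.25 against 0.02 over all genes. The estimate was negative in 27 of 43, against 46.5% of all genes. In 16 every library labelled cKO lay below every control library (11.1% of all genes) and in 2, Col5a3 and Col27a1, above (12.5% of all genes). At an unadjusted p under 0.05 there were 18, against 17.2% of all genes. DESeq2 called 12 of the collagens (4.64% of all genes), 11 lower (3.33% of all genes) and Col5a3 higher (1.3% of all genes).

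In whole CA RNA 38 were tested and 6, all with mean CPM under 1, were not. Of these 38, 3 were called, all lower in libraries labelled cKO (Col6a1, Col11a1 and Col12a1), where 2.79% of all genes were called lower and 1.38% higher (edgeR). The median log2 fold change was -0.07 against 0.00 over all genes, and 26 of 38 were negative (50.8% of all genes). Col11a1 and Col12a1 had every library labelled cKO below every control library (1.78% of all genes), and Col5a3 had them above (1.43% of all genes). Only Col11a1 and Col12a1 were called in both materials.

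**Figure D2:**
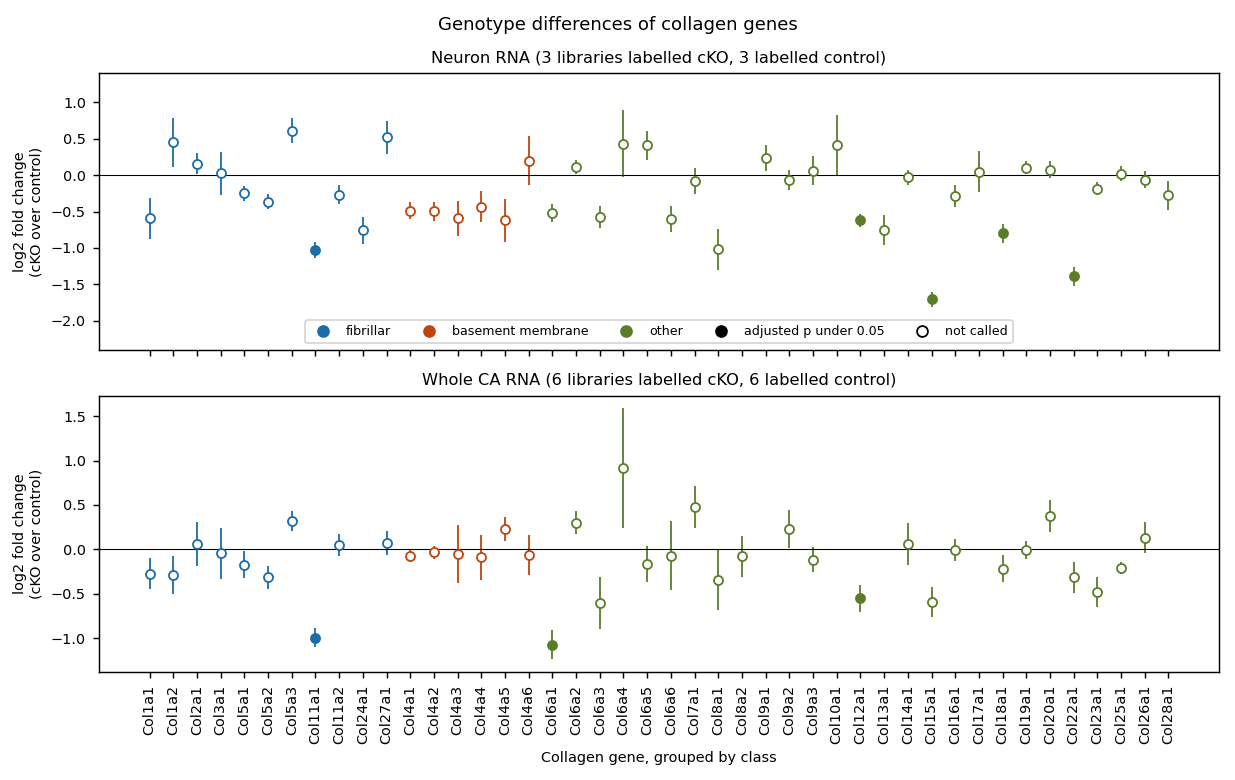
Points are log2 fold changes (libraries labelled cKO over control) of every collagen gene tested, with bars of 1 standard error from edgeR, grouped and coloured by class. Upper panel, neuron RNA with 5 called genes, filled and all below 0; lower panel, whole CA RNA with 3 called genes, also below 0.

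Among the fibrillar collagens, Col11a1, which encodes a chain of type XI collagen that takes part in starting fibrils, was the clearest member. It is ENSMUSG00000027966 at chr3:114030479-114220756 (GRCm38). Neuron RNA held 80.3, 76.0 and 68.3 CPM of it under the cKO label and 153, 132 and 170 CPM in control. It fell by 1.03 on the log2 scale (SE 0.11, adjusted p = 0.00106, edgeR). In whole CA RNA the libraries labelled cKO ran from 12.6 through a median of 16.5 to 21.3 CPM, and the control libraries from 28 through 32.5 to 36.7 CPM. There it fell by 1.0 (SE 0.11, adjusted p = 6.60e-06, edgeR), and the groups did not overlap in either material. Within lane 1 the difference was -0.92 and within lane 2 it was -1.07.

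The partner chain of Col11a1 and the type V chains were not called in either material in the main edgeR fit. Col11a2, the other type XI chain of the list, stood at 11.5, 11.2 and 10.4 CPM against 13.3, 10.8 and 15.4 CPM in neuron RNA (log2 fold change -0.27, adjusted p = 0.323, edgeR). Whole CA libraries ran from 16.2 to 29.7 CPM, median 20.5, against 18.1 to 25.2 CPM, median 20.7. Its groups overlapped in both materials. Col5a1, the main chain of type V collagen, stood at 71.2, 81.3 and 67.4 CPM against 90.2, 75.5 and 93.4 CPM in neuron RNA (-0.25, adjusted p = 0.272, edgeR). Its whole CA values ran from 5.19 through 7.91 to 9.81 CPM against 5.69, 9.07 and 10.3 CPM. Col5a2, its partner, was at 66.8, 62.4 and 55.5 CPM against 75.5, 72.1 and 87.8 CPM in neuron RNA, with no overlap between the groups but no call (-0.36, adjusted p = 0.119, edgeR). Whole CA values ran from 6.71 through 9.83 to 11.02 CPM against 9.03, 11.5 and 14.1 CPM (-0.32, adjusted p = 0.210, edgeR).

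Col5a3, a further type V chain, went the other way and was named for that after its values were seen. It was at 8.67, 6.65 and 8.58 CPM in neuron RNA labelled cKO against 6.19, 3.91 and 5.41 CPM, and at 4.74 to 6.202 CPM in whole CA RNA against 3.67 to 4.70 CPM. The groups did not overlap in either material, yet the differences were not called (0.61, adjusted p = 0.113, and 0.32, adjusted p = 0.145, edgeR). DESeq2 called Col5a3 higher in neuron RNA (1.3% of all genes), as did edgeR with a replicate block (59 of 19622 genes). The other fibrillar genes ranged from -0.76 (Col24a1, adjusted p = 0.0644) to 0.52 (Col27a1, adjusted p = 0.281) in neuron RNA with no call (edgeR). The type I genes, Col1a1 and Col1a2, and the type III gene Col3a1 overlapped between genotypes in both materials. Summed over the class, fibrillar collagens took 220 to 250 CPM of neuron RNA in libraries labelled cKO against 304 to 385 CPM in control, and 63.6 to 87.5 CPM of whole CA RNA against 91.9 to 102 CPM. Col11a1 alone went from a mean of 152 to 74.9 CPM in neurons and from 32.6 to 16.5 CPM in whole CA, and 6 of the 11 fibrillar estimates in neurons were negative.

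Among the basement membrane collagens, none of the 6 type IV genes was called in either material by edgeR, and an unadjusted p under 0.05 was found for 3 in neurons (17.2% of all genes) and 0 in whole CA (15.7% of all genes). Col4a1 and Col4a2 encode the chains that form the ubiquitous type IV trimer and lie head to head on chromosome 8. Col4a1 stood at 262, 230 and 262 CPM in neuron RNA labelled cKO against 407, 312 and 332 CPM in control. Its groups did not overlap (-0.49, SE 0.12, adjusted p = 0.0607, edgeR), and DESeq2 called it. Col4a2 was at 253, 240 and 256 CPM against 402, 277 and 369 CPM, again without overlap (-0.50, SE 0.13, adjusted p = 0.0860, edgeR) and also called by DESeq2. Neither differed beyond the spread of the whole CA libraries. Col4a1 ran from 54.5 through 64.8 to 72.1 CPM against 55.0, 69.7 and 72.4 CPM, and Col4a2 from 71.8 through 81.4 to 87.0 CPM against 67.9, 83.6 and 94.0 CPM. RefSeq gene spans of Col4a1 and Col4a2 overlap only from 11312805 to 11312889 on chromosome 8. Those of Col4a3 and Col4a4 overlap only from 82586921 to 82587034 on chromosome 1. Reads in these short stretches are uncertain.

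The remaining named type IV chains had few counts and wider errors. Col4a4 was at 0.822, 1.29 and 0.915 CPM in neuron RNA labelled cKO against 1.42, 1.22 and 1.4 CPM (-0.43, adjusted p = 0.324, edgeR), and in whole CA RNA it ran from 0.698 to 1.52 CPM against 0.676 to 1.75 CPM. Col4a5 was at 0.508, 0.504 and 0.431 CPM against 0.528, 0.628 and 1.04 CPM in neuron RNA (-0.62, adjusted p = 0.328, edgeR). Across whole CA libraries it ran from 3.41 through 4.70 to 6.28 CPM against 3.49, 4.09 and 4.56 CPM (0.23, adjusted p = 0.463, edgeR). The signs of Col4a5 thus differed between the materials, and the test of that difference was not passed (adjusted p = 0.507, edgeR). In all, 5 of the 6 were negative in neurons and 5 of 6 in whole CA, with medians of -0.49 and -0.06. Their summed level was 472 to 521 CPM against 593 to 812 CPM in neuron RNA and overlapped in whole CA RNA (143 to 167 against 129 to 174 CPM). Col4a1 and Col4a2, with control means of 350.4 and 349.6 CPM, made up nearly all of the neuron sum. It thus mainly restates these 2 genes, which edgeR did not call. Summed over the collagens neither fibrillar nor of type IV, the genotypes overlapped in both materials. That sum was 873 to 1031 against 988 to 1135 CPM in neuron RNA and 202 to 255 against 232 to 292 CPM in whole CA RNA.

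Among the other collagens, both multiplexins were called in neuron RNA. Col15a1 (ENSMUSG00000028339, chr4:47207655-47313167), which encodes a basement membrane zone proteoglycan, had 6.62, 6.43 and 6.58 CPM in neuron libraries labelled cKO against 23.4, 18.5 and 21.7 CPM in control. It fell by 1.71 on the log2 scale (SE 0.11, adjusted p = 4.83e-05, edgeR), the largest fitted change of any collagen in that fit. Its span overlaps that of 1 predicted gene in the count files. Its values in whole CA RNA ran from 2.22 through 2.75 to 4.62 CPM against 3.61, 4.39 and 5.85 CPM, with overlap and no call (-0.59, SE 0.17, adjusted p = 0.0619, edgeR). That value rested on 1 lane. In lane 1 it was -1.08 (adjusted p = 0.0198) and in lane 2 it was -0.18 (adjusted p = 0.801), and without the fourth library labelled cKO it was -0.75 and called (adjusted p = 0.00934, edgeR).

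Col18a1 (ENSMUSG00000001435, chr10:77052178-77166530), the source of the fragment endostatin, was at 3.65, 3.26 and 3.27 CPM in neuron RNA labelled cKO against 6.74, 5.35 and 5.50 CPM. It fell by 0.80 (SE 0.13, adjusted p = 0.0105, edgeR), a call lost without the second library labelled cKO (adjusted p = 0.0538). For whole CA RNA the groups overlapped, at 2.43 through 3.29 to 4.35 CPM against 2.53, 3.89 and 4.17 CPM (-0.22, adjusted p = 0.574, edgeR).

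Of the 9 FACITs, 2 were called in neuron RNA. Col22a1 (ENSMUSG00000079022, chr15:71795795-72150979), a collagen of tissue junctions, was at 6.86, 5.86 and 5.53 CPM against 17.7, 13.6 and 16.1 CPM in neuron RNA. It fell by 1.39 (SE 0.13, adjusted p = 0.000574, edgeR). Values in whole CA RNA ran from 1.999 through 2.26 to 2.97 CPM against 1.61, 2.96 and 3.48 CPM and was not called (-0.32, adjusted p = 0.416, edgeR). Col12a1 (ENSMUSG00000032332, chr9:79598987-79721141), a fibril-associated collagen of dense connective tissue, was at 25.05, 30.4 and 28.2 CPM against 44.1, 41.6 and 41.7 CPM in neuron RNA and fell by 0.62 (SE 0.09, adjusted p = 0.00675, edgeR). Over the whole CA libraries it ran from 2.69 through 3.48 to 3.99 CPM against 4.00, 4.85 and 7.15 CPM and fell by 0.55 (SE 0.15, adjusted p = 0.0404, edgeR). The whole CA call was lost on leaving out any 1 of 9 libraries (adjusted p up to 0.0977) and held without the sixth library labelled cKO or the second or sixth control. It was also lost with library sizes alone as the scaling (adjusted p = 0.0532) and in each lane alone, while the log2 fold change stayed between -0.61 and -0.43 over all alternatives.

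Col19a1, a fibril-associated collagen that neurons make, stood in neuron RNA at 211, 209 and 187 CPM against 187, 184 and 190 CPM (0.10, adjusted p = 0.580, edgeR). Across whole CA RNA it ran from 17.6 through 23.7 to 25.8 CPM against 18.9, 22.5 and 25.1 CPM. Col25a1, a transmembrane collagen of neurons, stood at 261, 251 and 225 CPM against 209, 252 and 258 CPM in neuron RNA (0.02, adjusted p = 0.937, edgeR). The whole CA values ran from 82.7 through 97.9 to 107 CPM against 99.1, 112 and 127 CPM (-0.21, adjusted p = 0.119, edgeR). Neither of these neuronal collagens was called in either material in the main edgeR fit. Col25a1 was called lower in whole CA RNA in 2 of 23 alternatives. The remaining 5 FACITs tested in whole CA RNA and 6 other FACITs tested in neuron RNA gave no call.

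**Figure D3:**
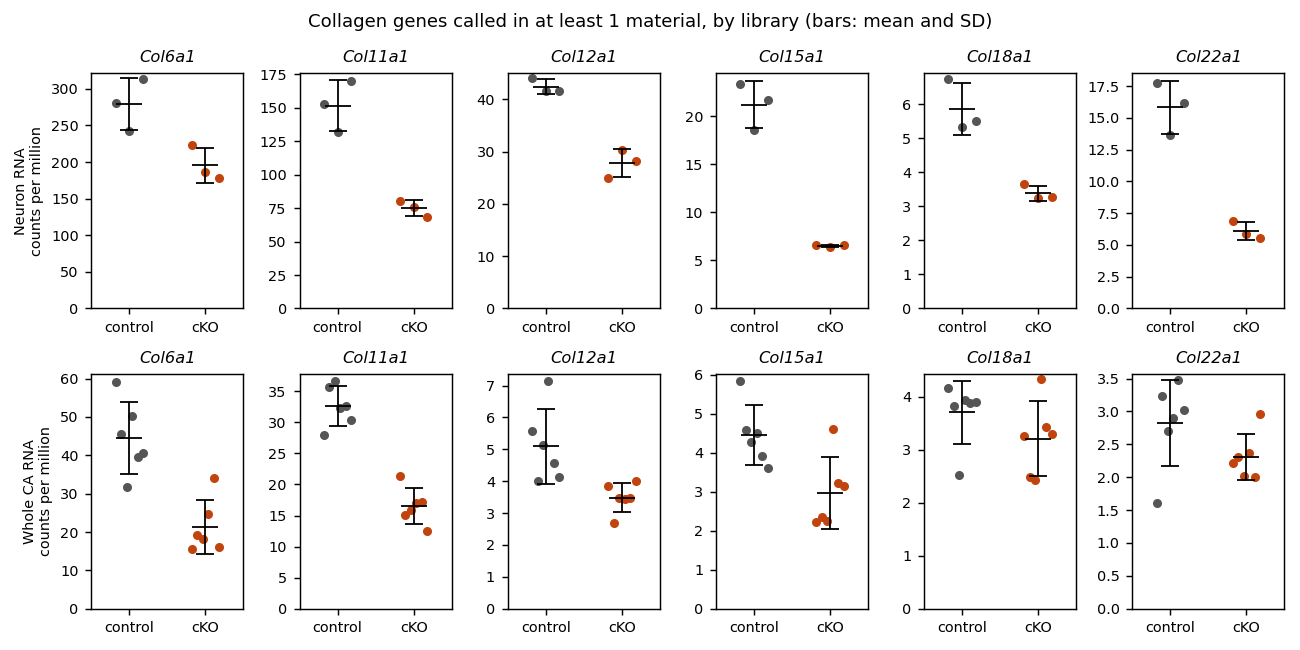
Each point is the CPM of 1 library for the 6 collagen genes called in at least 1 material, with the mean and SD of each genotype (neuron RNA in the upper row, 3 libraries each; whole CA RNA in the lower row, 6 each; axes start at 0). In neuron RNA the genotypes are apart for all 6 genes, and in whole CA RNA for Col11a1 and, narrowly, Col12a1.

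Type VI collagens divided by chain. Col6a1 (ENSMUSG00000001119, chr10:76708792-76726044) encodes a chain that assembles with the product of Col6a2, which lies beside it, and a longer chain. In whole CA RNA Col6a1 ran from 15.6 through 18.7 to 34.0 CPM in libraries labelled cKO against 31.8, 43.2 and 59.1 CPM in control and fell by 1.07 (SE 0.17, adjusted p = 0.000581, edgeR). A single library labelled cKO, the fifth, overlapped the control range. Within lane 1 the difference was -1.34 (adjusted p = 0.000965) and within lane 2 -0.84, where the call was lost (adjusted p = 0.0643, edgeR). In neuron RNA it was at 223, 186 and 178 CPM against 281, 243 and 313 CPM, without overlap and just outside the threshold (-0.52, SE 0.12, adjusted p = 0.0590, edgeR). DESeq2 called it there (adjusted p = 0.0015).

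Col6a2 was not lower in either material. It stood at 83.4, 72.5 and 71.8 CPM in neuron RNA labelled cKO against 73.3, 61.8 and 74.0 CPM (0.11, adjusted p = 0.609, edgeR). Col6a2 in whole CA RNA ran from 7.89 through 9.42 to 12.1 CPM against 6.02, 7.55 and 9.95 CPM (0.30, adjusted p = 0.263, edgeR). Col6a3, the longer chain, was at 4.62, 4.87 and 6.96 CPM against 8.44, 7.94 and 7.90 CPM in neuron RNA (-0.58, adjusted p = 0.0878, edgeR). Col6a4 ranged from 0.329 to 15.7 CPM among whole CA libraries labelled cKO, and its standard error was 0.67 there.

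Because the counts of Col6a1 and Col6a2 went apart, the ratio of partner chains is given per library for 5 pairs. The ratios restate the counts above, were chosen after those were seen and are given as a description. An exact permutation test was run on them, but its p-values are not given as support for that reason. Across whole CA libraries the CPM ratio of Col6a1 to Col6a2 was 1.70 to 2.80 in the 6 libraries labelled cKO and 5.18 to 6.68 in the 6 control libraries. The difference of the mean log2 ratio was -1.401 (SD 0.26 and 0.14). It was -1.37 in lane 1 and -1.43 in lane 2. In neuron RNA the ratio was 2.48 to 2.67 against 3.84 to 4.23.

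The ratio of Col11a1 to Col11a2 likewise restates the fall of Col11a1. Its whole CA values were 0.423 to 0.931 against 1.11 to 2.03, a mean difference of -1.04 in log2 terms, with -0.92 in lane 1 and -1.16 in lane 2. In neuron RNA it was 6.56 to 6.97 against 11.1 to 12.2. For Col4a1 to Col4a2 (-0.04), Col5a1 to Col5a2 (0.14) and Col1a1 to Col1a2 (0.07) the whole CA ratios overlapped between genotypes. The ratios use counts not divided by gene length and do not give the number of chains per trimer.

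**Figure D4:**
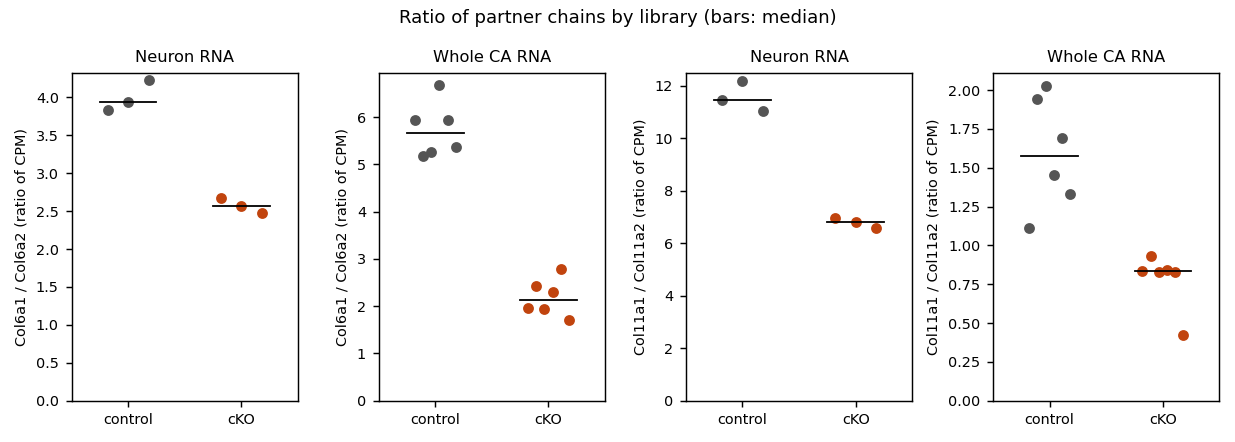
Each point is the ratio of CPM of partner chains in 1 library, by genotype, with a bar at the median (Col6a1 over Col6a2 in the left pair of panels, Col11a1 over Col11a2 in the right pair; axes start at 0). The libraries labelled cKO lie below every control library in all 4 panels, at 1.70 to 2.80 against 5.18 to 6.68 for Col6a1 over Col6a2 in whole CA RNA.

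Whether the genotype effect differed between materials was tested by the interaction in a fit of all 18 RNA libraries. Col15a1 was the only call among 42 collagens tested (neuron minus whole CA -1.11, SE 0.23, adjusted p = 0.0400, edgeR), where 0.16% of all genes were called, 0.131% with a negative difference. The call was lost with library sizes alone as the scaling (adjusted p = 0.0514) and on leaving out any 1 of 13 of the 18 libraries (adjusted p up to 0.150). It held without the second control library of neuron RNA, the first control library of whole CA RNA, or 1 of the libraries labelled cKO 1 to 3 of whole CA RNA. Under all these alternatives the difference stayed between -1.21 and -0.95. Col22a1 had a difference of nearly the same size that was not called (-1.06, SE 0.23, adjusted p = 0.0611). For Col11a1 (-0.03) and Col12a1 (-0.06) the interaction was near 0, and for Col6a1 it was 0.55 (adjusted p = 0.602, edgeR). For Col4a1 and Col4a2 it was -0.41 and -0.46 (adjusted p = 0.424 and 0.392, edgeR), so a difference between materials was not shown for them.

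H3K4me3, the mark that Setd1b and related enzymes place at active start sites, was read as the base pairs under the deposited peaks within 2 kb of each start site. The length of a peak is not its height. All 4 libraries of a genotype used 1 input library, so input and genotype cannot be told apart. Of the 38 collagen start sites, 24 had a peak in every control library (63.2%, against 52.2% of all start sites) and 12 had none in any library. The 12 included those of Col3a1, Col6a3, Col6a4 to Col6a6, Col7a1 and Col9a1. Among the 26 with a peak, 5 had shorter coverage in every library labelled cKO than in any control library (19.2%, against 20.5% of all start sites with a peak) and 0 had longer (1.12% of all). The share of shorter collagen sites is thus near that of all start sites.

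The 5 sites belong to 4 peak regions. At the start shared by Col4a1 and Col4a2, coverage was 2570, 2684, 2863 and 2693 bp in libraries labelled cKO against 3298, 3409, 3335 and 3218 bp in control at the Col4a1 site. At Col5a1 it was 1542, 1723, 1648 and 1607 bp against 1963, 1914, 1924 and 2186 bp, and at Col25a1 1834, 1970, 2476 and 2233 bp against 2777, 2797, 2665 and 2639 bp. At Col6a1 it was 0, 661, 567 and 622 bp against 841, 1078, 963 and 1085 bp. The groups were thus apart at each. None of the genes at these 4 regions was called in neuron RNA by edgeR (adjusted p = 0.0607 for Col4a1, 0.0860 for Col4a2, 0.0590 for Col6a1, 0.272 for Col5a1 and 0.937 for Col25a1), and Col6a1 alone of them was called in whole CA RNA. DESeq2 called Col4a1, Col4a2 and Col6a1 lower in neuron RNA (3.33% of all genes). These genes were lower there without overlap (11.1% of all genes), while Col5a1 and Col25a1 overlapped. At both Col6a2 start sites coverage was 1002 to 1045 bp against 893 to 1003 bp, with overlap. The sites of these genes were not tested, since the test was set for members called in neuron RNA.

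For those members the groups overlapped. At Col11a1, coverage was 2477, 2606, 2541 and 2541 bp against 2624, 2626, 2580 and 2575 bp (exact permutation p = 0.0857, adjusted 0.343 over 4 start sites). At Col15a1 it was 1061 to 1275 bp against 1177 to 1362 bp (exact permutation p = 0.429), and at the Col18a1 site with a peak 1242 to 1501 bp against 1217 to 1473 bp (exact permutation p = 0.800). The other Col18a1 start had 0 bp in every library. The smallest p of this exact permutation test is 0.0286, so after adjustment over 4 sites no single site could have passed, and the test does not show that coverage was alike. Col12a1 and Col22a1 had no entry among the start sites used.

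The acetylation marks were read the same way. At Col6a1, H3K9ac peaks covered 0 bp in all 3 libraries labelled cKO and 446 to 646 bp in the 4 control libraries, and H3K27ac covered 0 bp in all 4 libraries labelled cKO and 1005, 0 and 375 bp in control. A region without a called peak is not necessarily without the mark. At Col11a1, H3K27ac covered 560, 466, 420 and 772 bp against 1637, 1252 and 840 bp, without overlap, while H3K9ac covered 2047 to 2508 bp against 1774 to 2171 bp, with overlap. Over the collagen start sites, 3 of 18 with an H3K27ac peak (Col8a1, Col11a1 and Col25a1) and 2 of 24 with an H3K9ac peak (Col6a1 and Col27a1) were shorter without overlap. The shares over all start sites were 9.18% and 10.5%. None was longer without overlap (2.71% and 3.4% of all start sites). For H3K4me1, 2 of 33 were longer without overlap, the paired starts of Col4a5 and Col4a6 (6.35% of all), and 0 were shorter (3.27% of all).

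**Figure D5:**
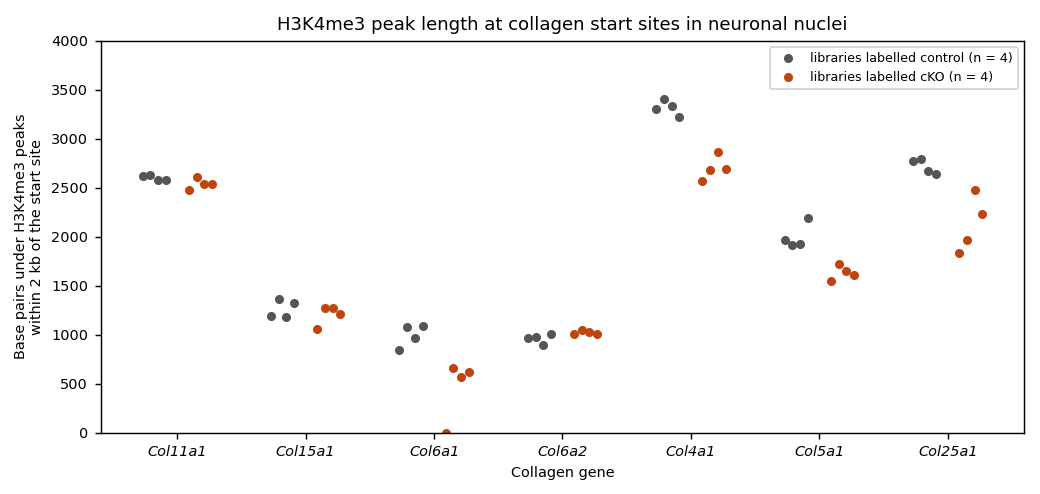
Each point is 1 library's base pairs under H3K4me3 peaks within 2 kb of the start site of the gene named below it (4 libraries labelled control in grey, 4 labelled cKO in orange, axis from 0). The genotypes are apart at Col6a1, Col4a1, Col5a1 and Col25a1 and overlap at Col11a1, Col15a1 and Col6a2.

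Genes that make, bind or degrade collagen were read from lists of the pathway. Of 33 genes of collagen biosynthesis and cross-linking, 30 were tested in each material. Over all genes, 2.0% were called lower and 0.744% higher in neurons, and 2.79% and 1.38% in whole CA, and each list below gave at most 2 calls in a material. In neuron RNA 2 fell, the lysyl hydroxylase gene Plod1 (8.27 ± 0.87 to 5.31 ± 0.73 CPM, SD, log2 fold change -0.65, adjusted p = 0.0289, edgeR) and the lysyl oxidase gene Loxl1 (-0.93, adjusted p = 0.0466, close to the threshold). Among whole CA libraries the procollagen peptidase gene Adamts3 fell by 0.37 (adjusted p = 0.0334, edgeR) and Bmp1, which encodes another procollagen peptidase, rose by 0.56, from 41.2 ± 4.5 to 61.4 ± 5.8 CPM (SD, adjusted p = 0.000108, edgeR). The list medians were -0.13 and -0.07.

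The 10 collagen receptors (9 tested in neurons and 8 in whole CA) gave 1 call in neuron RNA, where Ddr2 rose by 0.55 (11.8 ± 0.6 to 17.4 ± 1.1 CPM, SD, adjusted p = 0.0159, edgeR), and 0 in whole CA RNA. Of 11 genes of collagen turnover (10 and 8 tested), Mmp14, a membrane-bound collagenase, fell in neuron RNA by 1.09 (adjusted p = 0.0484) and in whole CA RNA by 0.31 (adjusted p = 0.0472, edgeR), both close to the threshold. The 16 partners of type IV collagen in basement membranes (15 and 16 tested) gave 0 calls in neuron RNA. Among whole CA libraries the peroxidase gene Pxdn, whose product cross-links type IV collagen, rose by 0.22 (adjusted p = 0.0156, edgeR).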

How the data were processed

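The deposited RNA files gave read counts in whole numbers per Ensembl gene for each library, with no normalization visible, and the authors' aligner, counting tool and strand setting are not given in the sources used here. Reads shared by overlapping genes may be split or dropped. Symbols matched 99.26% of neuron and 98.94% of whole CA identifiers, and rows naming no gene held 0 counts. The deposited ChIP files listed the peaks of each library with their length and −log10 q-value, called with MACS 2.1.1.20160309 (H3K4me3) or 2.1.0.20140616 at a q cutoff of 0.1, per the file headers. The build was mm10 (GRCm38), per the submitters' processing notes.

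Counts were fitted with edgeR 4.0.16 (quasi-likelihood test, TMM factors, filterByExpr), separately by material and without a replicate block, over all genes, with calls at an adjusted p (Benjamini-Hochberg) under 0.05. A fit of all 18 libraries gave the interaction and the control contrast. CPM are counts per M counted reads. SE is the log2 fold change divided by the square root of F. Alternatives used DESeq2 1.42.0, other scalings, filters and thresholds, lanes, a replicate block and leaving out libraries. Peak coverage within 2 kb of RefSeq start sites (GRCm38.p6) was summed per library, and single values were compared by two-sided exact permutation (scipy 1.17.1). The edgeR fit was tested on simulated data. In the simulated neuron libraries the share of false calls was above the nominal level, so neuron calls close to the threshold are less certain than their adjusted p states.

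Members, classes, lists and tests were chosen with earlier results of these data known. Values per library in neuron RNA and ranges over libraries in whole CA RNA are given for selected collagens. These are the collagens called in either material and the 3 with the highest control CPM in each class and material. Col5a3, Col6a2 and Col6a3 were added after their values were seen. Marker lists covered pyramidal neurons, interneurons, dentate granule cells, fibroblasts, pericytes, smooth muscle, endothelium, choroid plexus, astrocytes, oligodendrocytes, their precursors and microglia.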

Additional observations from a re-analysis of the deposited data

Results flagged for a closer look

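In 6 of 96 groups of libraries screened, the highest or lowest library stood apart from the others of its group by Dixon's criterion, which chance meets in about 1 in 20 groups. The screen covered whole CA RNA and the H3K4me3 coverage at the tested start sites, and neuron RNA was not screened. All 6 lay in whole CA RNA. Col6a3 stood apart in both genotypes, at 10.8 CPM in control library 1 and at 5.58 CPM in cKO library 4. Col18a1 was at 2.53 CPM in control library 3, below the rest of its group. Col22a1 was at 2.97 CPM in cKO library 6, above the rest. For Col4a3, cKO library 6 was low at 0.228 CPM, and for Col4a6, control library 4 was high at 2.097 CPM. The genotype effect on Col15a1 was larger in neuron RNA than in whole CA RNA by an interaction test, with a difference of -1.11 on the log2 scale. None of these was examined for a cause.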

How the results depend on the processing

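In neuron RNA the 5 collagen calls were 11 without a filter on counts, 11 at an adjusted p under 0.1 and 12 by DESeq2. The 539 calls over all genes were 930 at an adjusted p under 0.1, 832 by DESeq2 and 207 to 482 without 1 library. In whole CA RNA the 3 collagen calls were 1 in replicates 4 to 6, and the 640 over all genes were 288 when the fold change also had to reach 0.5 in log2 terms, 207 in replicates 1 to 3 and 224 in replicates 4 to 6. The 1 interaction call was 0 with library sizes alone, 2 without a filter and 2 at an adjusted p under 0.1, and 0 to 2 without 1 library (an alternative chosen after seeing the data). The contrast of control materials gave 37 to 39 calls over its alternatives, and library sizes alone moved the median of all genes to 0.25 and the collagen split to 29 higher and 9 lower.

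A replicate block, fitted although the numbers do not pair the libraries (correlations of deviations from -0.06 to 0.29 among neuron libraries and -0.06 to 0.20 among those of whole CA), gave 327 calls over all genes and 6 collagen calls in neuron RNA, adding Col5a3, and 839 and 4 in whole CA RNA, adding Col25a1.

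Signs of values that were not called turned in some alternatives. Without 1 library, Col25a1 in neuron RNA ran from -0.070 to 0.082, and in whole CA RNA Col11a2 ran from -0.043 to 0.118, Col19a1 from -0.051 to 0.054, Col4a2 from -0.082 to 0.0055 and Col4a4 from -0.209 to 0.040. Likewise the H3K4me3 difference at Col18a1 ran from -36.7 to 61.0 bp. In whole CA RNA Col19a1 was 0.0071 with library sizes alone and 0.070 in replicates 4 to 6, Col5a1 was 0.043 in replicates 4 to 6, and Col4a4 was 0.092 in replicates 1 to 3. The cause was not tested. Col11a1 kept its call in every alternative in both materials, and so did Col12a1, Col15a1 and Col22a1 in neuron RNA.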
